A study of Mus musculus with 6 samples.

Results

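Mitochondrial ribosomal protein genes encode the protein subunits of the ribosome inside mitochondria. The members described here are the genes on the array whose symbol starts with Mrpl or Mrps followed by a number, 76 of the 18193 genes represented. Of them 47 carry an Mrpl symbol, for the large subunit, and 29 an Mrps symbol, for the small subunit. The rule uses symbols only, and it was set with earlier results of these data known. Each gene was read from a single probe set. Of those that carry exactly 1 gene symbol, this was the brightest by its mean of 6 arrays. Mrpl30 and Mrpl53 were listed only on probe sets shared with another symbol and gave no value. Of the 76 members, 75 had a mean at or above 4.74 on the log2 scale, the median over all probe sets, and Mrpl37 lay just below it.

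The mitochondrial ribosome, or mitoribosome, translates the few proteins encoded by mitochondrial DNA, all of them subunits of the respiratory chain and ATP synthase. All of its own proteins are encoded in the nucleus, made in the cytosol and imported. Part of them have counterparts in the bacterial ribosome, and the rest were added in the evolution of mitochondria. Astrocytes hold mitochondria in their cell bodies and processes, and need mitochondrial translation to assemble the respiratory chain.

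The series compared 3 arrays of reactive with 3 arrays of non-reactive astrocytes, each of cells pooled from about 15 FVB/N mice aged 2 to 3 months whose sex was not determined. Reactive cells came from mice of the line TgN(hGFAP-EGFP) GFEA, which carries green fluorescent protein under the human GFAP promoter, and were collected 5 days after a stab wound of the somatosensory cortical grey matter, 0.7 mm deep and 1 to 1.2 mm long. Non-reactive cells came from the matching region of uninjured Tg(Aldh1l1-eGFP)OFC789Gsat mice. All samples were sorted for green fluorescence, and the labels number the pools as biological replicates. The p-values measure the spread between these pools. Injury and reporter line coincide, so the contribution of either cannot be told apart. In bulk RNA, a change in which cells were sorted and a change in RNA per cell cannot be told apart either.

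The correlation between arrays was 0.901 to 0.921 among reactive pools, 0.95 to 0.963 among non-reactive pools and 0.889 to 0.93 across groups. Gfap, whose human promoter marks the reactive cells, differed by 3.12 (SE 0.48, limma adjusted p = 0.0492), and Aldh1l1, whose promoter marks the others, by -0.57 (SE 0.23). The 2 other Gfap probe sets differed by 2.18 and 2.34 and the other Aldh1l1 probe set, at a mean of 4.65, by -0.0137. All 8 astrocyte markers had means above 4.74 in both groups, with a mean log2 level of 9.74 to 10.08 on the reactive and 10.67 to 11.02 on the non-reactive arrays, and 1 of the 8 lay higher in the reactive group. All 10 microglia and macrophage markers lay higher in the reactive group, at a mean log2 level of 9.92 to 10.49 against 7.51 to 7.95, and 9 of them had a mean above 4.74 in the non-reactive group. The oligodendrocyte markers ran from 9.59 to 9.82 on the reactive and from 8.64 to 9.53 on the non-reactive arrays, with 6 of 7 higher. Neuron markers had means of 8.57, 9.13 and 7.47 on the reactive and 8.80, 8.77 and 8.23 on the non-reactive arrays. Endothelial and mural markers had 5.13, 5.21 and 6.78 against 5.27, 5.80 and 5.53, so reactive replicate 3 stood off in both lists. The 3′ minus 5′ difference of the control probe sets, a measure of transcript length after amplification, was lower in the reactive group by 1.03 for Gapdh, 1.66 for Actb and 2.02 for Pcx and higher by 1.98 for 18S rRNA. Apart from the neuron and endothelial markers these values moved with the groups. The part of any of them in the differences below was not tested.

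Most mitoribosomal genes had higher values in the reactive arrays, and 3 of the 76 rose past the threshold while none fell. The 3 were Mrpl50, Mrpl20 and Mrpl54, all of the large subunit (limma, Benjamini-Hochberg adjusted p under 0.05 over all probe sets). Over all 18193 genes the same threshold called 0.39% higher and 0.561% lower. The log2 difference, reactive minus non-reactive, was above 0 for 64 of the 76 members, or 84.2%, against 60.7% of all genes. The median difference over the members was 0.43, with quartiles of 0.08 and 0.89, and that over all genes was 0.12, with quartiles of -0.24 and 0.39. Among the 12114 genes with a mean at or above 4.74 the median was 0.04, and 52.7% lay above 0.

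In 22 members every reactive array lay above every non-reactive array, which is 28.9% of members against 13.5% of all genes. The reverse held for 3 members, Mrpl9, Mrpl39 and Mrpl3, against 8.2% of all genes. At an unadjusted p under 0.05, limma gave 25 members higher and 1 lower, beside 7.88% and 7.13% of all genes. A difference of at least 2-fold was measured upward in 17 members and downward in 1, beside 5.65% and 6.61% of all genes. The range ran from -2.05 for Mrpl9 to 3.00 for Mrpl50, and the median standard error of a difference was 0.31.

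**Figure D1:**
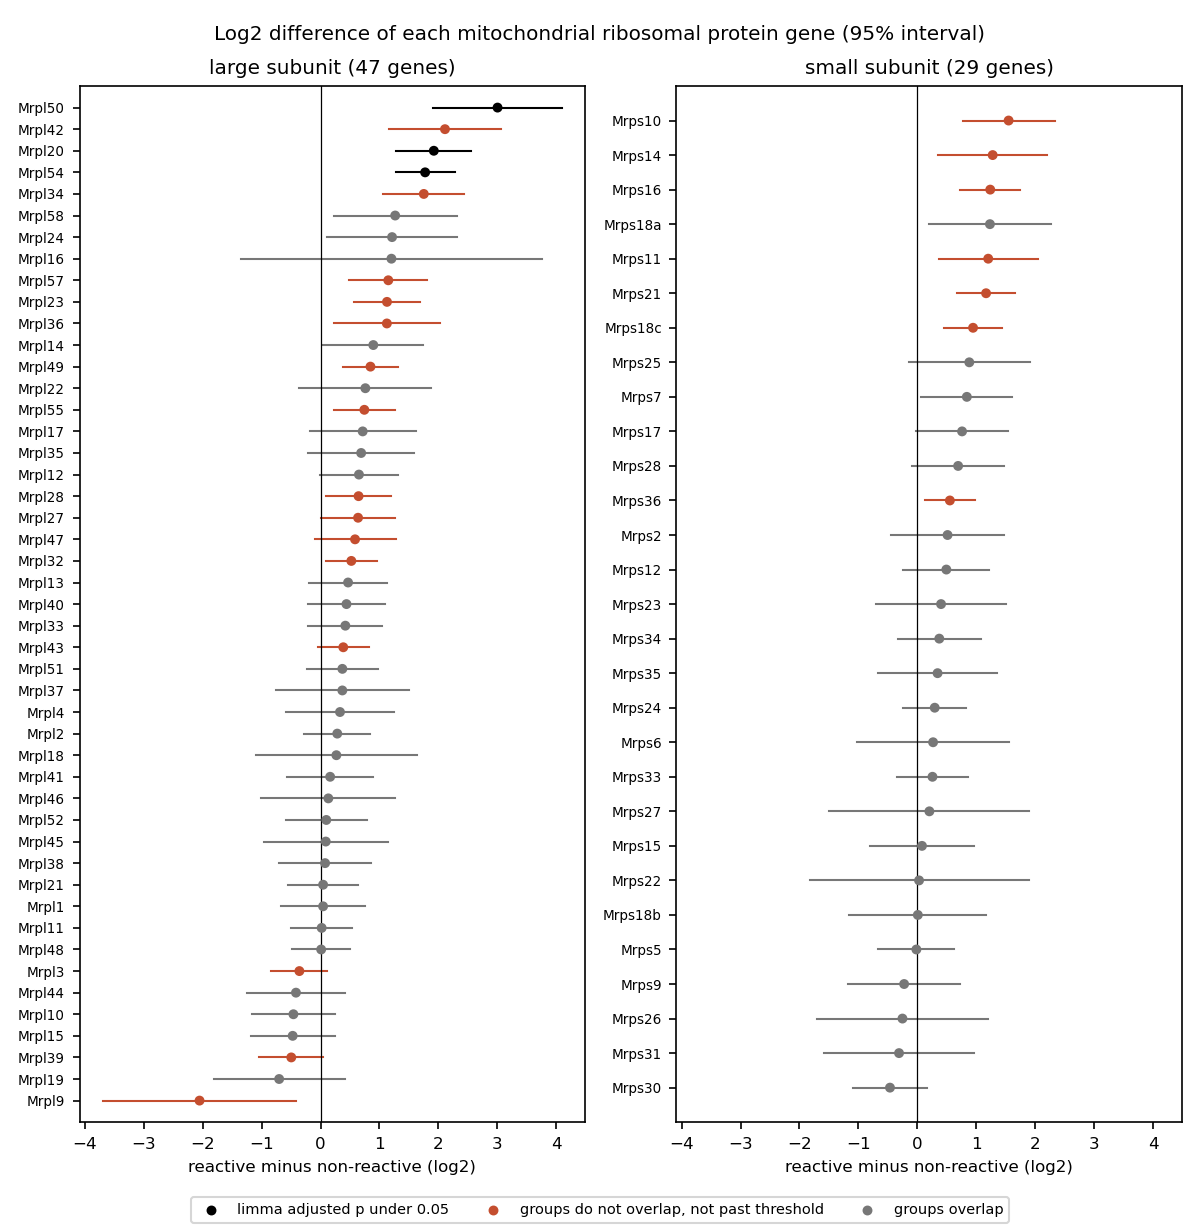
Log2 difference, reactive minus non-reactive, of each of the 76 members (points) with its 95% interval (lines), large subunit on the left and small subunit on the right. The 3 black points are the genes past the threshold, and the points lie to the right of 0 for 64 of the 76.

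Mrpl50 is a large-subunit protein with no bacterial counterpart. It measured 8.62, 7.72 and 7.24 on the reactive arrays and 5.59, 4.63 and 4.36 on the non-reactive arrays (log2, replicates 1 to 3). The groups lay well apart, and its non-reactive mean of 4.86 was close to 4.74. It rose 8.02-fold, from 4.86 ± 0.65 to 7.86 ± 0.70 (SD, n = 3), a log2 difference of 3.00 (SE 0.46; limma adjusted p = 0.0492). The other Mrpl50 probe set differed by 1.22 (SE 0.45) without passing, and the mean of both by 2.11 (limma adjusted p = 0.0565). Mrpl20, whose bacterial counterpart binds ribosomal RNA early in assembly of the large subunit, measured 9.42, 9.66 and 8.82 on the reactive and 7.52, 7.34 and 7.27 on the non-reactive arrays. Its groups did not overlap, and it rose 3.79-fold, from 7.37 ± 0.13 to 9.30 ± 0.43 (SD, n = 3), a log2 difference of 1.92 (SE 0.27; limma adjusted p = 0.0409). Mrpl54, another protein found only in mitochondria, measured 8.03, 7.78 and 8.26 on the reactive and 6.15, 6.25 and 6.35 on the non-reactive arrays. It had the smallest error of the 3 and rose 3.42-fold, from 6.25 ± 0.10 to 8.02 ± 0.24 (SD, n = 3), a log2 difference of 1.78 (SE 0.21; limma adjusted p = 0.0285). Its other probe set, at a mean of 4.78, differed by 0.04, so with the mean of the probe sets the difference was 0.91 (limma adjusted p = 0.0883).

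These calls lay near the threshold and depended on single arrays. Without reactive replicate 1, 2 or 3 the limma adjusted p was 0.0904, 0.0930 and 0.0610 for Mrpl50, 0.0921, 0.0763 and 0.0415 for Mrpl20 and 0.0707, 0.0479 and 0.0582 for Mrpl54. Without non-reactive replicate 1, 2 or 3 it was 0.0915, 0.179 and 0.145 for Mrpl50, 0.124, 0.156 and 0.134 for Mrpl20 and 0.105, 0.115 and 0.0973 for Mrpl54. Of the 15 or 16 alternatives that could be fitted, Mrpl20 passed in 8 of 15, Mrpl54 in 8 of 16 and Mrpl50 in 4 of 16. No gene of the whole table passed without any 1 of the non-reactive arrays. The size of the difference over these same omissions ran from 2.62 to 3.37 for Mrpl50, 1.74 to 2.16 for Mrpl20 and 1.66 to 1.89 for Mrpl54.

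Of the large subunit, 15 of 47 members, 31.9%, had reactive arrays all above the non-reactive ones, beside 13.5% of all genes. Mrpl42, specific to mitochondria, measured 11.06, 11.50 and 11.38 on the reactive and 9.95, 8.42 and 9.22 on the non-reactive arrays. The reactive arrays were close together and the non-reactive ones spread, and the difference of 2.11 (SE 0.40) did not pass (limma adjusted p = 0.0815). The second Mrpl42 probe set, at a mean of 2.94, differed by 0.48, and the mean of both by 1.30. Mrpl34, one of the smallest proteins of the bacterial type, measured 8.71, 9.04 and 9.42 against 7.67, 6.94 and 7.30. Its difference of 1.75 (SE 0.29) missed the threshold narrowly (limma adjusted p = 0.0581) and passed under another quantile normalisation (0.0470) and cyclic loess (0.0455). Its other probe set differed by 0.38 (SE 0.24), and the mean of the probe sets by 1.06. Mrpl57, specific to mitochondria, measured 11.17, 11.60 and 11.40 against 9.77, 10.34 and 10.61, a difference of 1.15 (SE 0.28, limma adjusted p = 0.141). The second Mrpl57 probe set, at a mean of 4.43, differed by 0.34, and the mean of both by 0.74. The groups of these genes did not overlap.

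Other large-subunit members with groups apart, named here after their values were seen, were Mrpl23, Mrpl36, Mrpl49, Mrpl55, Mrpl28, Mrpl27, Mrpl47, Mrpl32 and Mrpl43. Their log2 differences ran from 0.39 for Mrpl43 to 1.13 for Mrpl23, and none passed. Mrpl47, at 0.59, depended on the probe set, since its others, at means of 4.42 and 3.56, differed by 0.26 and -0.81 and the mean of all by 0.0089. Mrpl32 had the closest reactive values of these, 6.88, 6.87 and 6.88, against 6.36, 6.26 and 6.45. Mrpl32 is cut to its mature form by the m-AAA protease after import, a step on which assembly of the large subunit depends. Mrpl12, a stalk protein that also binds the mitochondrial RNA polymerase, measured 9.18, 9.52 and 9.05 on the reactive and 9.05, 8.49 and 8.26 on the non-reactive arrays. Its groups met at 9.05, and the difference of 0.65 (SE 0.28) did not pass (limma adjusted p = 0.381).

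In 3 large-subunit genes all reactive arrays lay below the others, 6.38% of that subunit beside 8.2% of all genes. Mrpl9, with a bacterial counterpart at the base of the ribosome's L1 stalk, measured 4.38, 7.23 and 5.86 on the reactive and 8.28, 7.39 and 7.97 on the non-reactive arrays. The reactive arrays spread widely (SD 1.42) with replicate 1 lowest, and the difference of -2.05 (SE 0.69) did not pass (limma adjusted p = 0.283). Its other probe sets differed by -1.29 and -0.14. Mrpl39, which is specific to mitochondria and resembles an aminoacyl-tRNA synthetase, measured 9.66, 9.80 and 9.28 against 10.27, 10.07 and 9.88, a difference of -0.50 (SE 0.23). Its other probe set differed by 0.16. Mrpl3, which reaches the peptidyl transferase centre, measured 8.36, 8.03 and 8.05 against 8.38, 8.59 and 8.55, a difference of -0.36 (SE 0.20), and its 3 other probe sets lay between -0.09 and 0.07.

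Of the small subunit, 7 of 29 members, 24.1%, had all reactive arrays above the non-reactive ones, beside 13.5% of all genes. None had the reverse, beside 8.2%, and none passed, where the threshold called 0.39% of all genes higher and 0.561% lower. Mrps10, a head protein of the subunit with a bacterial counterpart, measured 10.02, 9.58 and 9.74 on the reactive and 8.64, 8.48 and 7.57 on the non-reactive arrays. The groups were well apart, and the difference was 1.55 (SE 0.33, limma adjusted p = 0.106). Its other probe set, at a mean of 3.99, differed by -0.59, and the mean of both by 0.48. Mrps14, also of the head, measured 11.00, 10.74 and 11.69 against 10.53, 9.70 and 9.37, a difference of 1.28 (SE 0.39, limma adjusted p = 0.238). Its other probe sets went against this, at -0.78 and -0.20, and the mean of the probe sets differed by 0.10.

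Mrps16, a small-subunit protein with a bacterial counterpart and a cause of mitochondrial disease in humans when mutated, measured 9.90, 10.03 and 10.12 on the reactive and 8.97, 8.87 and 8.49 on the non-reactive arrays. Its difference of 1.24 (SE 0.21) had a limma adjusted p of 0.0661, and it passed when genes were tested on the mean of their probe sets (0.0484), which leaves its own values as they are. Mrps11, of the platform of the subunit, measured 6.33, 7.35 and 7.15 against 5.59, 6.22 and 5.42, a difference of 1.20 (SE 0.35). The second Mrps11 probe set, at a mean of 3.37, differed by 0.14, and the mean of both by 0.67. Mrps21 measured 10.03, 10.11 and 9.81 against 8.65, 8.76 and 9.04, a difference of 1.17 (SE 0.21, limma adjusted p = 0.0714). The second Mrps21 probe set, at a mean of 3.98, went the other way, at -0.15, and the mean of both was 0.51. Mrps18c, one of several mitochondrial relatives of the same bacterial protein, measured 11.23, 11.26 and 10.90 against 10.11, 10.08 and 10.36, a difference of 0.95 (SE 0.21, limma adjusted p = 0.116). The groups of these 4 genes did not overlap. Mrps36, named after its values were seen, had the smallest standard error of all members, 0.18, with 9.20, 9.25 and 9.29 against 8.69, 8.63 and 8.76 and a difference of 0.55 that did not pass. Despite its symbol it is now known as a subunit of the oxoglutarate dehydrogenase complex, not of the ribosome.

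**Figure D2:**
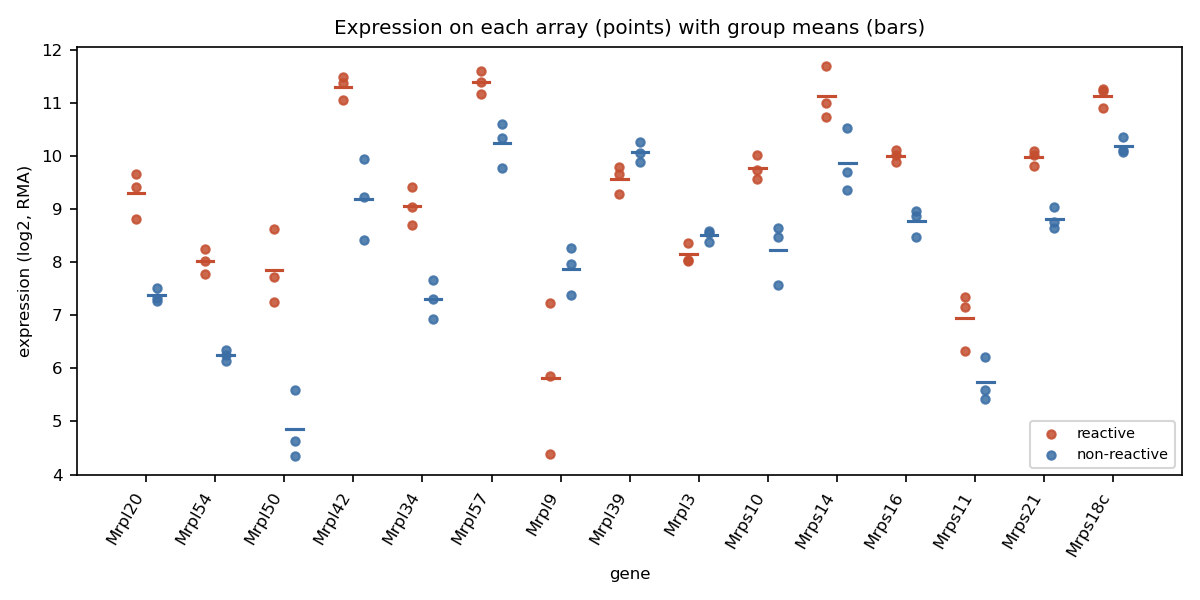
Expression (log2, RMA) on each of the 3 reactive and 3 non-reactive arrays (points) with the group mean (bars) for 15 members, from Mrpl20 to Mrps18c. Levels compare arrays within a gene and not genes with each other, and in Mrpl9, Mrpl39 and Mrpl3 the reactive points lie below.

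Size of difference and separation of the groups did not always go together. Mrpl58, a release factor that is built into the large subunit and frees stalled chains, differed by 1.27 (SE 0.44) with reactive replicate 1, at 7.96, below the highest non-reactive array, at 7.98. Its other probe set, at a mean of 3.45, differed by -0.0483. Mrpl24 differed by 1.21 (SE 0.46) and Mrps18a by 1.23 (SE 0.44), both with reactive replicate 1 inside the non-reactive range. Mrpl16 measured 5.06, 8.37 and 8.78 on the reactive and 7.47, 6.00 and 5.14 on the non-reactive arrays, so its difference of 1.20 had an SE of 1.07. These 4 were also named after their values were seen. The remaining 47 members had overlapping groups and, Mrpl12 included, differences from -0.70 for Mrpl19 to 0.90 for Mrpl14. Across the 76 members the difference had little relation to the mean log2 level (Pearson r = 0.13, Spearman rho = 0.18, n = 76 genes measured on the same arrays).

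Probe sets of the same gene often disagreed. The members had 156 probe sets with 1 symbol, of which 113 differed above 0, 3 passed upward and none passed downward. Of the 42 members with several probe sets, 21 had probe sets of both signs, and 34 members had 1 probe set. When the values of a gene's probe sets were averaged, 65 of 76 members lay above 0 and the median difference was 0.40. In that setting 2 members passed, Mrpl20 and Mrps16, where 0.44% of all genes were called higher.

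The medians of the large and the small subunit lay close together, with no test made of the lists. The median was 0.44 over the large-subunit genes, of which 40 of 47 lay above 0, and 0.40 over the small-subunit genes, of which 24 of 29 did. After each gene was centred on its mean over the 6 arrays, the large-subunit mean was 0.01, 0.37 and 0.40 on the reactive and -0.08, -0.32 and -0.38 on the non-reactive arrays. The small-subunit mean was -0.03, 0.29 and 0.49 on the reactive and -0.04, -0.35 and -0.35 on the non-reactive arrays. Replicate 1 of each group lay nearest to the other group in both subunits, and without reactive replicate 1 the median over all 76 members was 0.63 in place of 0.43. Large minus small was 0.04, 0.09 and -0.09 on the reactive and -0.04, 0.03 and -0.03 on the non-reactive arrays, so the groups overlapped in the balance of the subunits. Mrps30 and Mrps18a sit in the large subunit despite their symbols, and with them counted there and Mrps36 left out the medians were 0.44 and 0.39.

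**Figure D3:**
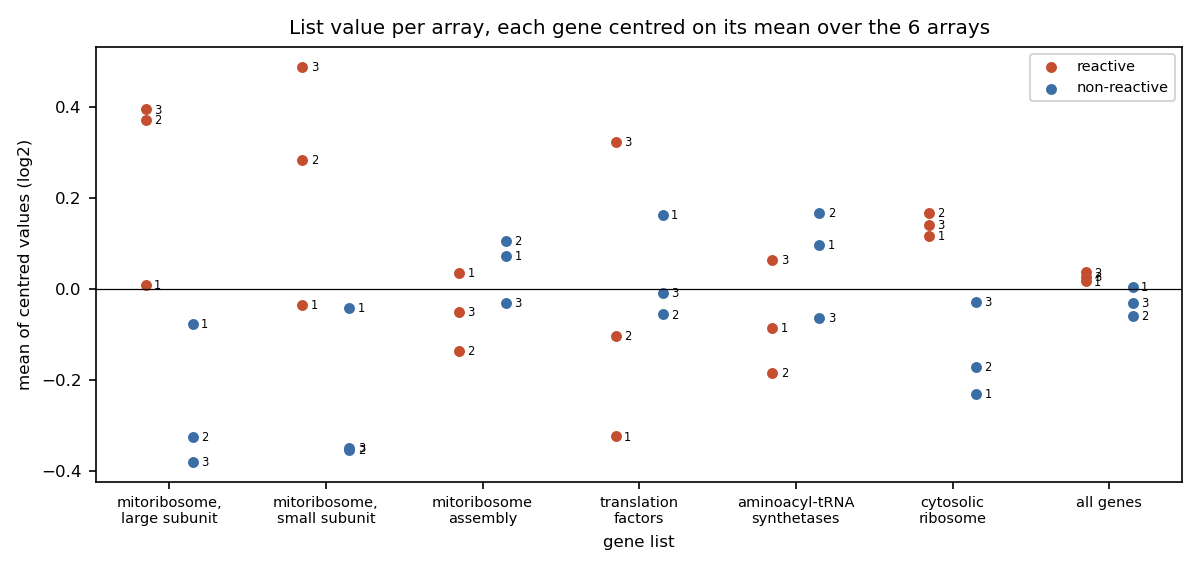
Mean of the centred log2 values of each gene list on each array (points, numbered by replicate), for the mitoribosomal subunits, 3 other mitochondrial translation lists, the cytosolic ribosome and all genes. Both subunits show reactive replicates 2 and 3 above 0.2, non-reactive replicates 2 and 3 below -0.3 and both replicates 1 near 0.

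Within each subunit the genes were divided by whether the protein has a bacterial counterpart. In the large subunit the 28 genes with one had a median difference of 0.58, with 23 above 0. The 19 specific to mitochondria had 0.37, with 17 above 0. All reactive arrays lay above the others in 8 of the 28, 28.6%, and 7 of the 19, 36.8%, beside 13.5% of all genes. The centred mean of the reactive arrays had the opposite order to the median there, at 0.22 and 0.31. In the small subunit the 16 with a counterpart had a median of 0.73, with 14 above 0 and 6 whose groups were apart, 37.5%. The 13 specific to mitochondria had 0.26, with 10 above 0 and 1 whose groups were apart, Mrps36, or 7.69%. These classes follow the symbols and a fixed list, which counts Mrps18a, Mrps18b and Mrpl47 as specific to mitochondria although they have bacterial relatives. A further division was chosen after seeing the data, with these 3 moved, Mrps18a and Mrps30 in the large subunit and Mrps36 left out. In it the large-subunit medians were 0.61 over 30 genes and 0.37 over 19. All reactive arrays lay above the others in 9 of the 30 and 6 of the 19. The small-subunit medians were 0.69 over 17 genes, of which 6 had groups apart, and 0.26 over 9, of which 0 did. The 3 genes that passed came from both classes. The difference between the classes was not tested. In the division first given, with both subunits pooled, genes with a counterpart minus the others lay between -0.06 and 0.08 per array. Within the subunits replicates 1 stood further apart, in opposite directions. Centred means with and without a counterpart were -0.14 and 0.24 in the large and 0.25 and -0.38 in the small subunit on reactive replicate 1. On non-reactive replicate 1 they were 0.0014 and -0.19, and -0.20 and 0.16. The classes lay closer together on replicates 2 and 3.

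The other lists of mitochondrial translation had medians near or below 0. Of the 4 measured mitoribosomal proteins with other symbols 3 lay above 0, the median was 0.07 and none passed. Chchd1, a small-subunit protein, measured 10.48, 10.28 and 10.49 on the reactive and 9.40, 9.25 and 9.44 on the non-reactive arrays, apart by a difference of 1.05 (SE 0.19, limma adjusted p = 0.0713). Dap3, a GTP-binding protein of the small subunit, differed by 0.09 (SE 0.31). Of 31 assembly genes 14 lay above 0, the median was -0.04 and none passed. Mrm2, a methyltransferase of the large ribosomal RNA, differed by 1.58 (SE 0.51), and Mterf3, a factor that binds mitochondrial DNA and takes part in ribosome assembly, by -2.03 (SE 0.64). The reactive mean of Mterf3, 3.86, lay below 4.74, and its other probe set, at a mean of 2.78, differed by 0.32.

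Of 14 translation factors 6 lay above 0, with a median of -0.27, and none passed. Slirp, which binds mitochondrial messenger RNA, differed by 0.68 (SE 0.28) and its partner Lrpprc by 0.46 (SE 0.59), the latter at a mean level close to 4.74. The elongation factor Tufm differed by -0.70 (SE 0.30), its 3 other probe sets by -0.28 to 0.14, and the initiation factor Mtif3 by -0.57 (SE 0.27). Of 19 mitochondrial aminoacyl-tRNA synthetases and amidotransferase subunits, which charge transfer RNAs, 6 lay above 0, the median was -0.23 and none passed. Hars2 differed by -1.24 (SE 0.40), with a reactive mean of 4.21 that lay below 4.74, and its other probe set by 0.34. Mars2 differed by 0.61 (SE 0.27), at means below 4.74 in both groups, and its other probe set by -0.0953. Of 11 genes for transcription and replication of mitochondrial DNA 5 lay above 0 and the median was -0.16. No gene of these had groups apart, beside 13.5% higher and 8.2% lower of all genes. The polymerase gene Polrmt differed by 0.33 (SE 0.58) and Tfam, the packaging and initiation factor, by -0.45 (SE 0.42). The other probe set differed by 0.63 for Polrmt and, at a mean of 3.99, by 0.32 for Tfam.

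Of 10 nuclear regulators of mitochondrial genes 5 lay above 0, the median was -0.15 and none passed. Their differences ran from -2.80 to 1.21. All reactive arrays lay above the others in 2, 20%, and below them in 2, 20%, beside 13.5% and 8.2% of all genes. Ppargc1a, the coactivator PGC-1alpha, measured 6.72, 6.59 and 4.13 on the reactive and 8.34, 8.80 and 8.70 on the non-reactive arrays. The groups lay apart, and the difference of -2.80 (SE 0.68) did not pass (limma adjusted p = 0.146). Its 4 other probe sets differed by -1.70 to -2.36. Gabpa, an ETS factor also called NRF-2 alpha, differed by -1.62 (SE 0.39), with both probe sets at means below 4.74 and the other at -0.18. Nrf1, a factor of respiratory chain genes, differed by -0.48 (SE 0.28), and its 3 other probe sets ran both ways, at 0.75, -1.76 and -0.71.

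The cytosolic ribosome, which makes all cell proteins not made inside mitochondria, was set beside the members as a comparison. Its probe sets were brighter, with a median log2 level of 12.78 against 8.34 for the members. Of its 47 measured genes 34 lay above 0, the median difference was 0.28 and none passed. In 18 of them, 38.3%, the reactive arrays all lay above the non-reactive ones, beside 13.5% of all genes. Centred means were 0.12, 0.17 and 0.14 on the reactive and -0.23, -0.17 and -0.03 on the non-reactive arrays, so the arrays were closer together than for the mitoribosome. Rps27l differed by 1.82 (SE 0.32, limma adjusted p = 0.0707) and Rplp0 by 1.59 (SE 0.30). Cytosolic ribosomal protein genes have many near-identical copies, and which copy a probe set reads is uncertain. Whether the shift differed between the 2 ribosomes was not tested.

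**Figure D4:**
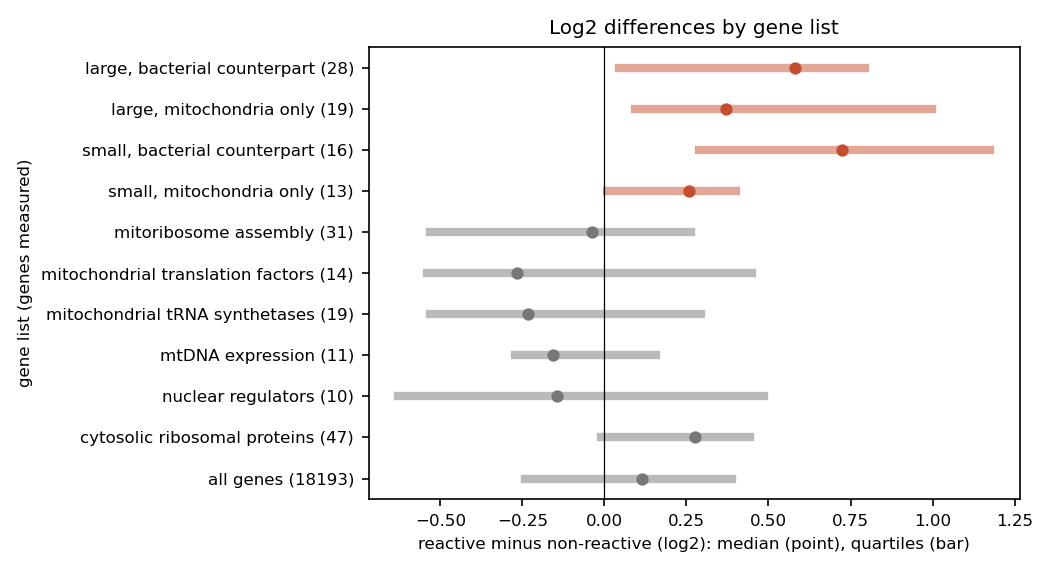
Median log2 difference, reactive minus non-reactive (points), with quartiles (bars) for each gene list, with the number of genes measured in brackets. The mitoribosomal lists, in red, have medians of 0.26 to 0.73, the cytosolic ribosome 0.28, all genes 0.12 and the 5 other mitochondrial lists shown medians below 0.

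Promoter sequences of 67 of the 76 members were in the RefSeq promoter table of build GRCm38.p6, as 73 windows of 300 bases running from 250 before to 50 after an annotated start. They were searched on both strands for the cores of 3 motifs linked to mitochondrial and ribosomal genes, the ETS core CCGGAAG, the NRF1 core GCATGCGC and the YY1 core AAGATGGCG. The ETS core was in 25 member windows, 34.2%, against 13% of the 18009 windows of genes on the array and 8.86% of all 32851 windows. The NRF1 core was in 8 windows, 11%, against 4.05% and 2.71%, and the YY1 core in 8 windows, 11%, against 2.1% and 1.4%. Cytosolic ribosomal protein windows held them in 40.8%, 4.08% and 4.08% of 49. Of the 29 ETS matches in members, 26 began within 100 bases of the start on either side. The YY1 matches began 11 to 36 bases after the start in Mrpl35, Mrpl37, Mrpl42, Mrps18a, Mrps24 and Mrps27. They lay before it only in Mrps11 and Mrpl36. No match of one motif overlapped a match of another in a member window.

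The 150 bases before the start are shown for the called genes in the table, Mrpl50 and Mrpl20, for the higher members Mrpl34 and Mrps11 and for the lower members Mrpl9 and Mrpl39, 5′ to 3′ on the gene's strand, with motif matches in capitals. The regions are chr4:49521084-49521233 (minus strand), chr4:155802728-155802877 (plus strand), chr8:71464776-71464925 (plus strand), chr7:78782981-78783130 (plus strand), chr3:94443186-94443335 (plus strand) and chr16:84735245-84735394 (minus strand), in that order and in build GRCm38.p6. The capitals are an ETS match in Mrpl34, 37 bases before the start, and a YY1 match on the opposite strand in Mrps11, 108 before it. In Mrpl9 and Mrpl39 they are NRF1 matches on both strands that overlap each other, from 28 and 125 bases before the start. The genes shown are examples and do not follow the order of the differences. Mrpl3, also lower but not shown, had an ETS match 19 bases before the start and no NRF1 match. Mrpl32, higher with groups apart and not shown, had NRF1 matches from 87 to 22 bases before it.
Mrpl50: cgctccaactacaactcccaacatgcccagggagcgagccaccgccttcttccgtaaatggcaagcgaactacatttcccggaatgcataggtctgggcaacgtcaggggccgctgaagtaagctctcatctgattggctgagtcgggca
Mrpl20: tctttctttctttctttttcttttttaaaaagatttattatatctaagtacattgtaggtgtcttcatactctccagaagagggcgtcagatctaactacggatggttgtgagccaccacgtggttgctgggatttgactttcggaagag
Mrpl34: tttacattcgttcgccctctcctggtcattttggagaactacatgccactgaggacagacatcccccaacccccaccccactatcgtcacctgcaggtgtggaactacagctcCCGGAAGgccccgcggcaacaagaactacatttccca
Mrps11: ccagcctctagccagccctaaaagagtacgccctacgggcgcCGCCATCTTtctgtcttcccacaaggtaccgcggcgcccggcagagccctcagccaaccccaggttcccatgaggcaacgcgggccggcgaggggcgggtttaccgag
Mrpl9: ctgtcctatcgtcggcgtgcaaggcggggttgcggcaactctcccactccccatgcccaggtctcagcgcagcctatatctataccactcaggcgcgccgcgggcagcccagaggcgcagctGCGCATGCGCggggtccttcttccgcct
Mrpl39: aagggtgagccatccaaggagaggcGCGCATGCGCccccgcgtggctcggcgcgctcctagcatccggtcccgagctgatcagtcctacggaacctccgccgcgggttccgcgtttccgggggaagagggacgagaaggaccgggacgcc

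The median difference was lower in members with an ETS or NRF1 core and higher in those with a YY1 core than in members without. The 25 members with an ETS core had a median difference of 0.40 and the 42 without 0.54. The 8 with an NRF1 core had 0.21, down to the -2.05 of Mrpl9 and up to 0.76, and the 59 without 0.51. The 8 with a YY1 core had 0.91, from 0.20 to the 2.11 of Mrpl42, and the 59 without 0.44. These are descriptions over small numbers with no test, and a match is not shown to be a bound site.

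**Figure D5:**
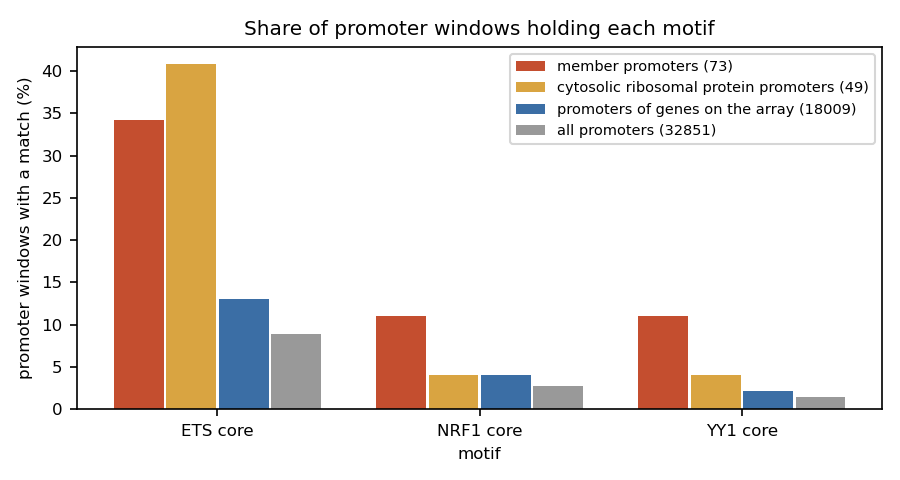
Share of promoter windows (%) that hold each motif core, for members, cytosolic ribosomal protein genes, genes on the array and all promoters, with the number of windows in brackets. The ETS core is in 34.2% of member windows and 13% of array-gene windows.

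Many members also face another gene across a shared promoter. The window of 23 of the 67 members, 34.3%, overlapped the window of a gene on the opposite strand, against 15.5% of array genes and 11.9% of all genes with a window. Each partner was measured, and 17 of the 23 differed above 0, beside 60.7% of all genes. Their median was 0.13, near the 0.12 of all genes. Mrps11 faces Mrpl46, which differed by 0.13, so both are members and both count among the partners. The following pairs were named after their values were seen, and no partner passed. Opposite Mrps18c, at 0.95, the helicase gene Helq differed by -1.16 (SE 0.23), with a reactive mean of 4.66 and another probe set at -0.20. Opposite Mrpl40, at 0.44, the histone chaperone gene Hira differed by -1.27 (SE 0.37). The 3 other Hira probe sets lay between -0.48 and 0.25. Opposite Mrpl32, at 0.52, the proteasome gene Psma2 differed by 1.40 (SE 0.43). Opposite Mrpl49, at 0.85, Fau differed by 0.43 (SE 0.20), and opposite Mrpl55, at 0.74, 2610507I01Rik differed by 0.70 (SE 0.29). Among the 23 partners, all reactive arrays lay above the others in Psma2, Fau, 2610507I01Rik and Mrps11, which is itself a member. They all lay below in Helq and Hira. Over all genes the shares were 13.5% and 8.2%. Opposite Mrpl50, at 3.00, Zfp189 differed by 0.11, at a mean of 3.02 that lies among the dimmest probe sets.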

How the data were processed

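The deposited values are log2 expression values of 45101 probe sets on 6 arrays, made by the authors with RMA per the submitters' processing notes. The version and settings are not given here in the sources. RNA was amplified in a 2-cycle protocol, per the labels' protocols, which favours the 3′ end, and quantile steps in RMA hide changes in total RNA. Array medians were 4.65 to 4.73, and the number of arrays limits the precision.

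From these, 64 control probe sets were left out and reactive minus non-reactive was fitted across the 45037 others with lmFit and eBayes of limma 3.58.1 (R 4.3.3) and no covariate. Two-sided p-values were adjusted by Benjamini-Hochberg over all probe sets, at a threshold of 0.05, and intervals are 95%. Symbols came from the platform annotation (34945 probe sets with 1, 932 with several, 9160 unnamed). All 76 member identifiers matched a GRCm38.p6 gene table, used for names only. Lists are described by counts and medians, with no test.

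The members, lists and rules were chosen with earlier results of these data known. Named members are those past the threshold and, in each subunit, the 6 largest differences each way among genes whose groups did not overlap. From each other list these are genes past the threshold, up to 2 others of largest size with groups apart, and a fixed set (Mrpl12, Dap3, Tufm, Polrmt, Tfam, Lrpprc, Nrf1, Gabpa, Ppargc1a, Gfap and Aldh1l1). Alternatives changed normalisation, priors, array weights, the filter, probe set choice, subunit membership, pairing and the arrays kept.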

Additional observations from a re-analysis of the deposited data

How the results depend on the processing

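The number of members called, 3 in the main analysis, was 1 with a trended prior, where 0.324% of all genes were called higher. It was 1 without probe sets of suffix _x_at, _s_at or _a_at (62 members left), beside 0.338% of all genes. With the replicate number as a replicate block it was 0, and no gene of the whole table passed. With an array left out it was 0 to 1, beside 0% to 0.209% of all genes. Deviations of same-numbered arrays had correlations of -0.073, -0.107 and 0.037, within the -0.108 to 0.193 of differently numbered ones. With 3 arrays per group these values cannot decide whether the numbers pair the arrays. With the block 18 members were higher and 1 lower at an unadjusted p under 0.05 (limma). Without an array, 16 to 26 were higher and 0 to 1 lower. In the main analysis these counts were 25 and 1, beside 7.88% and 7.13% of all genes. The other settings called 2 to 4 members, none lower, beside 0.286% to 0.66% of the genes tested called higher. The members' median stayed between 0.39 and 0.63 over all settings, and 57 to 65 of 76 lay above 0 wherever all were tested. With an array left out it was 0.39 to 0.63 over all members, 0.39 to 0.61 in the large and 0.35 to 0.66 in the small subunit, highest without reactive replicate 1. Large minus small, 0.04, was -0.13 without the suffixed probe sets, so its sign is not settled.

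Signs turned for Mrpl39 (0.16), Mrpl58 (-0.0483), Mterf3 (0.32) and Hars2 (0.34) without the suffixed probe sets, where another probe set stood for the gene. They turned for Zfp189 under another quantile normalisation (-0.0149) and cyclic loess (-0.0485). Without an array, Dap3 ran from -0.0828 to 0.37, Polrmt from -0.31 to 0.76 and Lrpprc from -0.12 to 0.94; the cause was not tested. Fau, 2610507I01Rik and members mentioned only in passing were not followed over the settings. No other named gene changed sign in any setting. Signal near background limits Mrpl50, Gabpa, Mars2, Lrpprc, Mterf3, Hars2, Helq and Zfp189.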
